A study of Caenorhabditis elegans with 2 samples.

Results

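The genes described here were all 129 genes that the Ensembl annotation of the WBcel235 genome assigns to the small nuclear RNA (snRNA) class in the nematode Caenorhabditis elegans, out of 31527 genes of the nuclear chromosomes outside the piRNA class. They were split by symbol into 30 spliced leader genes, namely 12 sls-1 and 18 sls-2 genes, and 99 other snRNA genes, 10 of which are smy genes. For each gene the nearest summit and the highest signal within 500 bp of the gene were taken from the deposited lists of candidate binding regions. The lists came from chromatin immunoprecipitation with sequencing (ChIP-seq) in which NHR-237, a member of the nuclear hormone receptor family, was fused to enhanced green fluorescent protein, in whole L3 larvae of mixed sex. There was a single group with 2 biological replicates of strain OP228, genotype unc-119(ed3) III; wgIs228, so every library carried both the unc-119 allele and the tagged insertion. Neither the cells that express the fusion protein nor the promoter that drives it were stated in the labels. Since whole animals were used, binding in few cells and weak binding in many cells cannot be told apart.

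Spliced leader RNAs donate a short leader exon to the 5′ end of many nematode messenger RNAs by trans-splicing. The SL1 RNA, from the sls-1 genes in the 5S ribosomal RNA repeat, serves mostly monocistronic and first genes, and the SL2 type RNAs, from the scattered sls-2 genes, serve mostly the downstream genes of operons. Other snRNAs form the core of the spliceosome, and the smY RNAs of the smy genes are bound by Sm proteins and associated with trans-splicing. These short genes share a promoter element ahead of the start, the proximal sequence element, which is read by the SNAPc complex, and many exist in several nearly identical copies.

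The sequences below show the 100 bases before the annotated start, 5′ to 3′ on the gene's strand, taken from the RefSeq copy of the WBcel235 assembly. The first 3 belong to the closely related genes sls-2.2 (chrII:5543498-5543597, plus strand), sls-2.1 (chrII:5844765-5844864, plus strand) and sls-2.3 (chrII:5544274-5544373, minus strand), each of which had a region among the 1000 of highest signal in the pooled list. Capitals mark runs of at least 10 positions with the same base in all 3 genes.
sls-2.2: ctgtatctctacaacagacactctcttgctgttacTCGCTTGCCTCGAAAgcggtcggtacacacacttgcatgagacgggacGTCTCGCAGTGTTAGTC
sls-2.1: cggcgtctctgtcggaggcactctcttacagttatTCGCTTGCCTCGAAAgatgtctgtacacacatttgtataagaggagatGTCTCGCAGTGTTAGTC
sls-2.3: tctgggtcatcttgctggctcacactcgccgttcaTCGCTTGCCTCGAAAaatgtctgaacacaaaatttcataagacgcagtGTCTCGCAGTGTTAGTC
The shared runs covered positions -65 to -51 and -17 to -1, where -1 is the base before the start, and 61 of the 100 positions were the same in all 3. Ahead of sls-2.4, the fourth gene of the family, the first run was identical at all 15 positions and the second at 9 of 17.

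The next sequences show the same stretch for genes that hold 1 of 2 words of 8 bases, CGGAACCC or TGTCGGTA, given in capitals. CGGAACCC was the most frequent word ahead of distinct snRNA genes, present in 30 of 119. TGTCGGTA was the next most frequent one to share no more than 3 letters in a row with it, and was chosen after the frequencies had been seen.
sls-2.8 (chrIII:12250365-12250464, plus strand), with a high pooled signal: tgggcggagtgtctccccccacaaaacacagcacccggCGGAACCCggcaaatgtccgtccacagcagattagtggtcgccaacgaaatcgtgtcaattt
W05B2.8 (chrIII:10989579-10989678, plus strand), with a high pooled signal: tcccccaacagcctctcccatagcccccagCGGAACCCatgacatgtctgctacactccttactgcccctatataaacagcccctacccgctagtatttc
sup-6 (chrII:12944968-12945067, minus strand), with a high pooled signal: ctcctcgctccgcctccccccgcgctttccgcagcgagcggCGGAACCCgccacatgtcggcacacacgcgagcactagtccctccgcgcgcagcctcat
sls-2.15 (chrIII:11090910-11091009, plus strand), with no summit within 500 bp in any list: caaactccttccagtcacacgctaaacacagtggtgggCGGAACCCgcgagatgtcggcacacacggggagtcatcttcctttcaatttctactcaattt
sls-2.16 (chrIII:7141291-7141390, plus strand), with no summit within 500 bp in any list: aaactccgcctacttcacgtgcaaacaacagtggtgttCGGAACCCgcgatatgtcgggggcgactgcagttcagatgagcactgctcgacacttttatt
sls-2.10 (chrIV:9130830-9130929, minus strand), with no summit within 500 bp in any list: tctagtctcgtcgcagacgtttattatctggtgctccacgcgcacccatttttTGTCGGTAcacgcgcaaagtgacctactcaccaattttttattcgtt
sls-1.12 (chrV:17118054-17118153, plus strand), with neither word and no summit within 500 bp: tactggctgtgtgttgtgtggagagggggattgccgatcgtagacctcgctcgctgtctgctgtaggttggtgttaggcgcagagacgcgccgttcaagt

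The RNAs themselves are shown for the SL2 gene sls-2.2 (chrII:5543598-5543707, plus strand) and the SL1 gene sls-1.12 (chrV:17118154-17118251, plus strand), with the leader of 22 bases in capitals, since the leader is the part joined to messenger RNAs.
sls-2.2: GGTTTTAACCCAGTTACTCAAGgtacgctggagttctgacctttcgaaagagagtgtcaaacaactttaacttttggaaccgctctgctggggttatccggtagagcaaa
sls-1.12: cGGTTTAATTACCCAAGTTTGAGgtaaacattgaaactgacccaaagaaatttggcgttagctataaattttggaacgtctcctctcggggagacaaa
The first 22 bases of sls-2.2 were identical in 4 of the 18 sls-2 genes, sls-2.1 to sls-2.4. The annotated sequence of sls-1.12 was identical in 10 of the 12 sls-1 genes, and the remaining ones, sls-1.1 and sls-1.5, are annotated as 68 bases without the leader.

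The pooled list and each replicate list held 30000 candidate regions, and the list that passed the irreproducible discovery rate (IDR) filter held 48. Each region carries a signal computed by the authors, without a stated scale, which is used here only to rank regions within a list, rank 1 being the highest. Pooled signals ran between 13.8 and 204.2 with a median of 17.5. Those of replicate 1 ran between 7.61 and 119.2, with a median of 9.96, and those of replicate 2 between 7.41 and 85.9, with a median of 9.76. Most pooled and replicate 1 regions were 350 bp wide and most replicate 2 regions 364 bp, with the summit at the centre, so that positions are coarse. Read depth was not given, and no test over samples is possible with 1 group. A gene with no listed region has no value, which is not a signal of 0.

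A handful of snRNA genes, mostly of the SL2 type, lay beside some of the strongest regions of the whole experiment, while most snRNA genes had no candidate nearby. Of the 129 genes, 3 had an IDR summit within 500 bp, or 2.33%, against 0.171% of all 31527 genes. These were the SL2 genes sls-2.4 and sls-2.2, and W05B2.8, an snRNA gene inside the dynein heavy chain gene dhc-4. A summit among the 1000 highest of the pooled list was found near 8 of the 129 genes (6.20%), against 3.41% of all genes. In the replicate lists taken alone, 5 snRNA genes (3.88%) were near the 1000 highest of replicate 1, against 3.39% of all genes, and 5 were near the 1000 highest of replicate 2, again against 3.39% of all genes. Among the 48 highest regions, as many as the IDR list holds, 3 lay near an snRNA gene in the pooled list, 4 in replicate 1 and 1 in replicate 2. The 3 of the pooled list had the same signals and ranks in the IDR list, so they repeat the IDR count. Among the 100 highest the counts were 5 in the pooled list, 5 in replicate 1 and 4 in replicate 2, of which 4, 4 and 3 were near a spliced leader gene. In the same order of lists, 2.33%, 3.10% and 0.775% of snRNA genes were near the 48 highest. The shares of protein-coding genes were 0.170%, 0.170% and 0.195%. Near the 100 highest were 3.88%, 3.88% and 3.10% of snRNA genes, beside 0.391%, 0.426% and 0.441% of protein-coding genes.

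Counted over the full lists the picture was different. Any pooled summit lay within 500 bp of 35 snRNA genes (27.1%), against 56.5% of all genes, many of which are longer. In replicate 1 the count was 42 (32.6%), against 56.2% of all genes, and in replicate 2 it was 32 (24.8%), against 56.4%. A summit in both replicate lists was present for 18 snRNA genes (14.0%), against 39.5% of all genes, and 73 had one in neither. Stretches of 1109 bp tiled over the genome, as wide as the median snRNA gene with its flanks, had a pooled summit in 30.2% of cases. Among short genes of other classes, the share was 37.7% of 612 tRNA genes, 44.2% of 346 snoRNA genes and 38.3% of 261 miRNA genes, all above the tiles, and 5% of 20 rRNA genes, below them. At the level of the 1000 highest regions the pooled snRNA share of 6.20% stood beside 2.45% of tRNA genes, 2.60% of snoRNA genes, 6 of 261 miRNA genes and 1.10% of tiles. In replicate 1 the snRNA share of 3.88% stood beside 2.29% of tRNA, 2.31% of snoRNA and 1.15% of miRNA genes. In replicate 2 the same 3.88% stood beside 1.31% of tRNA, 3.76% of snoRNA and 1.53% of miRNA genes, so there it was close to the snoRNA share.

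**Figure D1:**
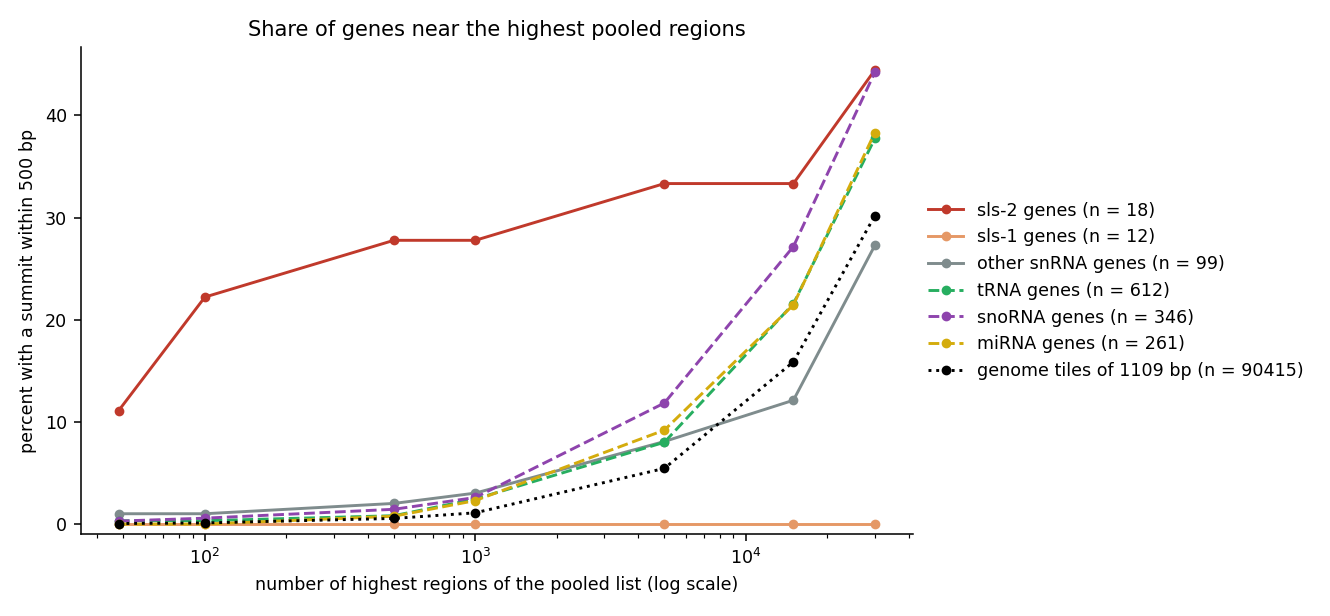
Percent of genes with a summit within 500 bp among the highest regions of the pooled list, against the number of regions taken (log scale), for sls-2, sls-1, other snRNA, tRNA, snoRNA and miRNA genes and for genome tiles of 1109 bp; points are counts over all genes of a class, with no error. The sls-2 genes stood at 22.2% for the 100 highest regions and 27.8% for the 1000 highest, the sls-1 genes at 0 throughout, and the other snRNA genes at 27.3% over the full list, below the tiles at 30.2%.

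The spliced leader genes were divided. None of the 12 sls-1 genes had a summit within 500 bp in any list. A pooled summit was found for 8 of the 18 sls-2 genes (44.4%), below the 56.5% of all genes, many of which are longer. For 5 of the 18 (27.8%) it was among the 1000 highest, against 3.41% of all genes. These 5 were sls-2.8 and the related genes sls-2.1 to sls-2.4, which are not independent of each other. Among the 1000 highest of replicate 1 the sls-2 count was 4 of 18 (22.2%). Among those of replicate 2 it was 3 of 18 (16.7%), against 3.39% of all genes in either list. Only 2 genes reached this level in both. For any summit, the sls-2 count in replicate 1 was 12 of 18 (66.7%), against 56.2% of all genes. In replicate 2 it was 8 of 18 (44.4%), against 56.4%. All 8 of the replicate 2 genes were also among the 12 of replicate 1. The other snRNA genes had a pooled summit in 27 of 99 cases (27.3%), also below the 56.5% of all genes. For 3 of the 99 (3.03%) it was among the 1000 highest, close to the 3.41% of all genes and beside 1.10% of tiles. This count is thus no result about the other snRNA genes.

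The highest signal of any snRNA gene was at sls-2.4, on chromosome I at 4172206 to 4172315 on the plus strand. Its region had a signal of 70.1 and rank 18 in the pooled list, with 36.1 and rank 26 in replicate 1 and 28.8 and rank 25 in replicate 2. It was high in both replicates, and the summits lay 36 bp upstream of the start in the pooled list, 62 bp upstream in replicate 1 and 30 bp upstream in replicate 2. The nearest protein-coding start, of egg-5, a gene of the oocyte-to-embryo transition, was 581 bp from the pooled summit.

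The related gene sls-2.2 had a pooled signal of 63.7 at rank 22, with 37.3 at rank 22 in replicate 1 and 23.7 at rank 54 in replicate 2. Its pooled summit lay 43 bp upstream of the start and 1309 bp from the nearest protein-coding start, of the insulin-like peptide gene ins-13. These were the only snRNA genes with a region among the 1000 highest of both replicate lists.

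Both other genes of this family were high in 1 replicate. For sls-2.1 the pooled signal was 41.3 at rank 57, with 31.7 at rank 33 in replicate 1 and 14.5 at rank 2707 in replicate 2. The pooled signal of sls-2.3 was 34.3 at rank 182, with 23.8 at rank 84 in replicate 1 and 9.34 at rank 17161 in replicate 2. The replicate 2 value of sls-2.3 was below that list's median. The pooled summit of sls-2.1 lay 29 bp upstream of its start, and that of sls-2.3 lay 4 bp inside the gene. The genes sls-2.2 and sls-2.3 face each other on opposite strands of chromosome II, and each had a region of its own. In replicate 2 the summit assigned to sls-2.1 was 214 bp downstream of the start, so the 3 lists placed it 243 bp apart. The sls-2.1 to sls-2.4 RNAs were identical at 100 to 107 of 110 positions, and their 100 upstream bases at 57 to 79 positions, without gaps. All 4 genes of the family had a summit in the pooled list and in both replicate lists.

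The pattern was the reverse at sls-2.8, an SL2 type gene on chromosome III with no near copy. Its pooled signal was 40.5 at rank 65, with 13.5 at rank 4414 in replicate 1 and 23.9 at rank 53 in replicate 2. Its pooled summit lay 26 bp upstream of the start. A protein-coding start, of Y75B8A.23, was 221 bp from that summit and 195 bp from the start of sls-2.8. The pooled summit was thus nearer to the snRNA start than to this coding start. In replicate 1 the summit lay 172 bp downstream of the sls-2.8 start, which is nearer to the coding start. The signals of sls-2.1 and sls-2.8 were just below the lowest signal in the IDR list, 42.7.

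The 3 remaining sls-2 genes with a pooled summit had low values. The pooled signal was 22.6 at rank 4870 for sls-2.14, 14.8 at rank 25576 for sls-2.7 and 14.3 at rank 27635 for sls-2.11. For sls-2.14 the replicate values were 9.08 in replicate 1 and 12.6 in replicate 2, with summits 35 bp and 33 bp inside the gene. For sls-2.7 replicate 1 gave 11.8 and replicate 2 had no region, and for sls-2.11 the values were 8.22 in replicate 1 and 7.42 in replicate 2. The other 10 sls-2 genes lacked a pooled summit. Among these, sls-2.12 had a region in both replicate lists, at 10.9 in replicate 1 and 10.5 in replicate 2. The genes sls-2.5, sls-2.6 and sls-2.13 had one in replicate 1 only, with signals of 8.70, 10.6 and 8.01. The genes sls-2.9, sls-2.10, sls-2.15, sls-2.16, sls-2.17 and sls-2.18 had none. The genes sls-2.14 and sls-2.15 are near copies beside each other on opposite strands, and the pooled summit of sls-2.14 was also the nearest one to sls-2.15, at 522 bp, just beyond the distance limit.

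**Figure D2:**
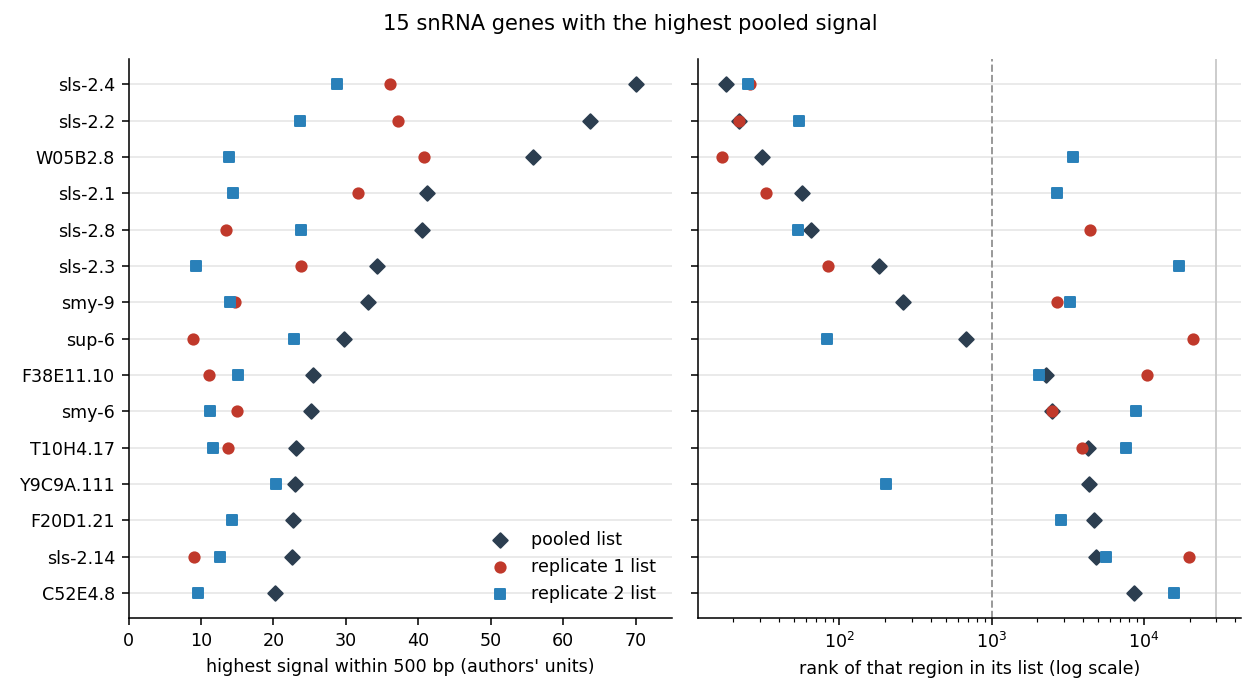
Highest signal within 500 bp (left, in the authors' units) and the rank of that region in its list (right, log scale; dashed line at rank 1000, solid line at the last rank, 30000) for the 15 snRNA genes of highest pooled signal; diamonds are the pooled list, circles replicate 1 and squares replicate 2. The genes sls-2.4 and sls-2.2 are left of the dashed line in both replicates, sls-2.8, sup-6 and Y9C9A.111 only in replicate 2 and W05B2.8, sls-2.1 and sls-2.3 only in replicate 1.

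Outside the spliced leader genes, W05B2.8 (III:10989679-10989780, plus strand) had the highest signal. It had a pooled signal of 55.9 at rank 31, with 40.8 at rank 17 in replicate 1 and 13.9 at rank 3404 in replicate 2. Replicate 1 was thus high and replicate 2 moderate. The pooled summit lay 67 bp upstream of the start, and the nearest protein-coding start, of the collagen gene col-94, was 1739 bp away. The sequence of W05B2.8 is identical in 14 genes, whose upstream stretches are all different. Of the 14, 3 had a pooled summit, beside 27.1% of all snRNA genes and 56.5% of all genes. The other two were Y9C9A.111, with 23.0 at rank 4365, and R07E5.16, with 14.3 at rank 27807. The Y9C9A.111 summit was 384 bp from the start and reached 20.3 at rank 201 in replicate 2, with no region in replicate 1. In the wider family of W05B2.8, 22 genes linked by identities of at least 90%, 4 had a pooled summit, beside the same 27.1% and 56.5%.

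The gene sup-6, known from suppressor alleles in a U1 snRNA, lies inside F58G1.7 on chromosome II. Its pooled signal was 29.8 at rank 677, with 8.90 at rank 20916 in replicate 1 and 22.8 at rank 83 in replicate 2. The replicates thus differed widely in rank, and the pooled summit lay 45 bp upstream of the start. In its family of 13 near copies 5 genes had a pooled summit, beside 27.1% of all snRNA genes and 56.5% of all genes. Among them was sup-39, another U1 suppressor gene, whose pooled signal was 15.6, from a summit 636 bp downstream of its start.

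Among the genes of the smY RNAs, smy-9 on chromosome IV had the highest pooled signal, 33.0 at rank 263, with 14.7 at rank 2699 in replicate 1 and 14.0 at rank 3276 in replicate 2. Its replicate values were alike, and neither was among the 1000 highest of its list. Its pooled summit lay 108 bp downstream of the start, beyond the end of the gene, and 309 bp from the protein-coding start of Y45F10B.59. It was the only one of the 8 highest genes with its summit beyond the gene's end. For smy-6 the pooled signal was 25.2 at rank 2475, with 14.9 in replicate 1 and 11.3 in replicate 2. Pooled summits were found for 4 of the 10 smy genes, replicate 1 summits for 7 and replicate 2 summits for 2, beside 56.5%, 56.2% and 56.4% of all genes in the same 3 lists.

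The other genes among the 15 highest had pooled ranks between 2277 and 8582. F38E11.10 had a pooled signal of 25.5, with 11.0 in replicate 1 and 15.1 in replicate 2. T10H4.17 had 23.1, with 13.8 in replicate 1 and 11.7 in replicate 2. F20D1.21 had 22.7, with 14.3 in replicate 2 and no region in replicate 1. C52E4.8 had 20.2, with 9.62 in replicate 2 and no region in replicate 1. For F38E11.10, T10H4.17 and F20D1.21 the pooled summit lay far from the start, at -343, 354 and 306 bp. Only that of C52E4.8, at -30 bp, was close to a start. The region near C52E4.8 was also the highest one near snr-4, which encodes an Sm protein, with the same pooled signal of 20.2 at rank 8582.

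In the pooled list, the summits of highest signal lay near the gene start. Of the 8 genes with a region among the 1000 highest pooled, 7 had that summit between 67 bp upstream and 4 bp downstream of the start, and 6 of the 8 were upstream. For 5 of the 8 a protein-coding start also lay within 1000 bp of the snRNA gene, although in all 8 the pooled summit was nearer to the start of the snRNA gene. The replicate lists placed some of these summits elsewhere. Of the genes with a region among the 1000 highest of a replicate list, 5 of 5 in replicate 1 and 3 of 5 in replicate 2 had it between 100 bp upstream and 50 bp downstream of the start, and in replicate 2 the positions ran between -102 bp and 384 bp, the last at Y9C9A.111. The lower of the replicate signals came with a summit at 172 bp in replicate 1 for sls-2.8, at -133 bp in replicate 1 for sup-6, at 214 bp in replicate 2 for sls-2.1 and at -131 bp in replicate 2 for W05B2.8. Over all 35 genes with a pooled summit, 16 of the highest summits were upstream, 6 inside the gene and 13 downstream, and 11 lay between 100 bp upstream and 50 bp downstream of the start. The nearest pooled summit had a median position of 47 bp downstream. Taking the 15000 highest regions only, the median moved to -11 bp over 18 genes. In replicate 1 the nearest summits had a median position of 109 bp and in replicate 2 of 20.5 bp.

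**Figure D3:**
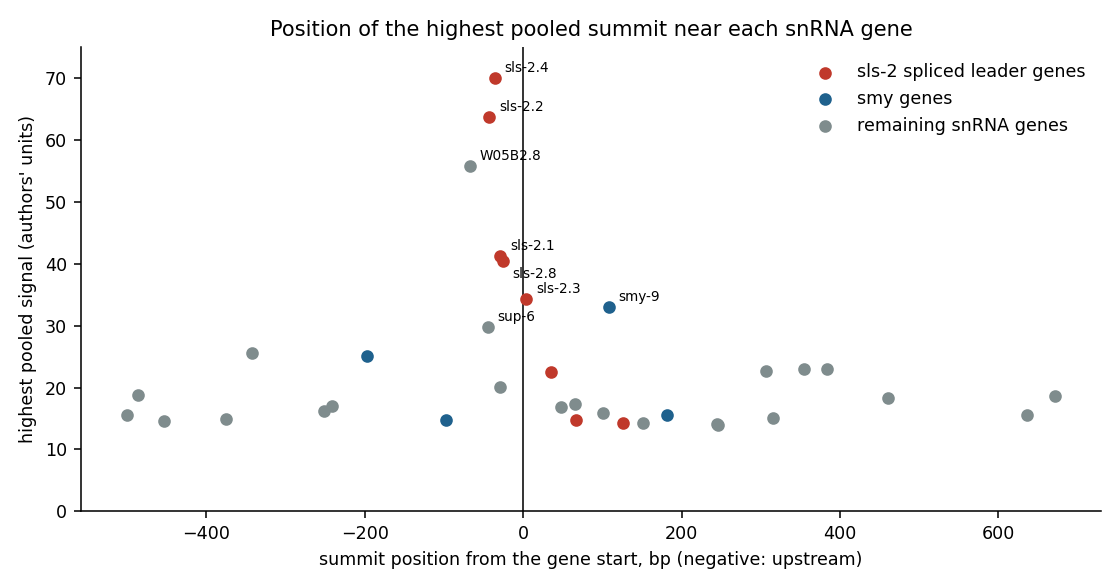
Highest pooled signal (authors' units) against the position of that summit from the gene start in bp, negative being upstream, for the 35 snRNA genes with a pooled summit within 500 bp of the gene; colours give sls-2, smy and remaining snRNA genes. The 7 points above a signal of 29 and close to the start lie between -67 and 4 bp, smy-9 lies at 108 bp, and the rest, below 26, are spread from -500 to 671 bp.

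The word CGGAACCC was present on the gene's strand in the 100 bases ahead of 30 of 119 distinct snRNA starts (25.2%), 5 of 18 sls-2 genes, 5 of 10 smy genes and none of the 4 distinct sls-1 starts. Counting both strands, it was found ahead of 25.2% of snRNA starts, of which 25 of 97 were other snRNA starts, against 5.78% of snoRNA, 0.772% of miRNA, 0.0504% of protein-coding and 0 of 605 tRNA starts. Its position was narrow, the first base lying between -74 and -56 in all 31 genes that held it. TGTCGGTA was present ahead of 18.5% of snRNA starts. Counting both strands, it was ahead of 0.165% of tRNA and 0.0806% of protein-coding starts and none of the snoRNA or miRNA starts. Its first base lay at -48 or -47. Many of the genes that held TGTCGGTA belong to 1 family of 19 near copies, so their starts are not independent. Both words were picked for their frequency ahead of these same snRNA genes. A higher share here than in other classes was thus favoured by the choice, and the contrast is a description only. These are matches of letters to a window and do not show that any protein was bound.

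Genes with and without a candidate region both held the words. CGGAACCC was ahead of 11 of the 35 genes with a pooled summit (31.4%) and 19 of 84 distinct starts of genes without one (22.6%). TGTCGGTA was ahead of 6 of the 35 and 16 of the 84. Of the 8 genes with a region among the 1000 highest pooled, 3 held CGGAACCC and 1, sls-2.4, held TGTCGGTA, whereas sls-2.1, sls-2.2, sls-2.3 and smy-9 held neither. The sequences of sls-2.15 and sls-2.16 printed above hold CGGAACCC at the same position as sls-2.8, from -62 to -55, and neither gene had a summit within 500 bp in any list.

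Many snRNA genes are repeated, which limits what a list of regions can show. The annotation held 94 distinct sequences among the 129 genes, and 44 genes had at least 1 identical copy. To describe the surroundings, the share of 36-mers found once in the genome was counted in each gene with 500 bp on either side. It was 0% to 29.5% for the sls-1 genes, with a median of 4.70%, and 69.7% to 100% for the sls-2 genes, with a median of 94.7%. The 35 genes with a pooled summit all had at least 81.1%, with a median of 92.4%, and the 94 genes without one ran between 0% and 100%, with a median of 85.1%. Among the genes with at least 90%, the share with a pooled summit was 42.4% of 66 snRNA genes and 50% of 14 spliced leader genes. The treatment of reads that map to several places was not stated in the labels, and its part in the counts was not tested.

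**Figure D4:**
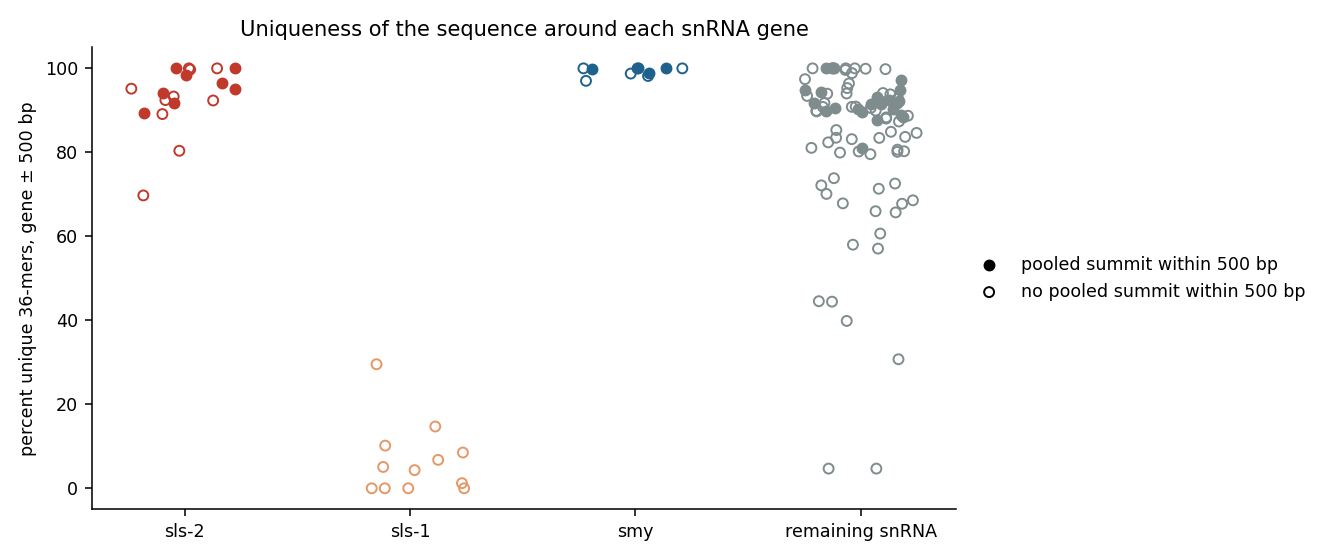
Percent of 36-mers that occur once in the genome, in each gene with 500 bp on either side, for sls-2, sls-1, smy and remaining snRNA genes; each point is a gene, filled where it had a pooled summit within 500 bp, and spread sideways for legibility. The sls-1 genes lie at 29.5% or lower and all are open, and every filled point lies at 81.1% or higher.

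The sls-1 genes form 1 array on chromosome V, from 17118154 to 17132107, and 13 annotated ribosomal RNA genes lie in or close to it. No summit of the pooled list or of either replicate list fell inside these 13954 bp. The nearest pooled summits were 1977 bp to the left, with a signal of 16.2 at rank 19452, and 10692 bp to the right, with 15.3 at rank 23013. With so little unique sequence, an absence of listed regions is not a measure of no binding.

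The genes whose products act on these RNAs were counted in the same way. Of 32 genes for SNAPc subunits, Sm proteins, spliced leader ribonucleoprotein proteins, Integrator subunits, which cut the 3′ end of snRNAs, and U2AF with its branch point partner, 23 had a pooled summit within 500 bp, beside 67.2% of all protein-coding genes. In replicate 1 the count was 26, beside 66.8% of protein-coding genes, and in replicate 2 it was 19, beside 67.1%. These counts are near the share of protein-coding genes at large. None had an IDR summit. A region among the 1000 highest pooled was near 2 of the 32, both Integrator subunit genes, beside 4.18% of protein-coding genes, so this count is no result about the list. For ints-8 the pooled signal was 36.3 at rank 114, with 21.5 at rank 181 in replicate 1 and 14.7 at rank 2503 in replicate 2. For ints-4 the pooled signal was 33.2 at rank 246, with 30.3 at rank 35 in replicate 1 and 10.2 at rank 12990 in replicate 2.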

How the data were processed

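ChIP-seq of eGFP-NHR-237 was deposited as lists of candidate regions, made from the alignments of each replicate and of both replicates pooled against a control, per the labels and the deposited file lists; an IDR list was derived from these. Fragments of 150 to 350 bp were selected, per the labels. The signal of each region is the authors' deposited value; no aligner, peak caller, IDR threshold or read depth was stated. Only the lists on the ce11 build, the same assembly as WBcel235, were used.

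Genes came from Ensembl release 115, and all 129 matched a RefSeq gene by identical coordinates, whose symbols are used because 44 genes share 9 Ensembl symbols. The distance was measured between the summit and the nearest base of the gene, with a limit of 500 bp. Near copies were genes at least 90% identical over the longer gene, linked in chains. The genes named were all with an IDR summit, the 15 of highest pooled signal, and all sls genes; others were chosen after their values were seen. Members and lists were chosen with earlier results of these data known. Counts were made in Python 3.11.15 with pandas 2.3.3, and no test was made. Only the search for summits near a gene was checked on simulated data. Alternatives were the distance, the list length, copies, coding starts, unique sequence and each replicate alone.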

Additional observations from a re-analysis of the deposited data

How the results depend on the processing

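Over 57 alternative values, 40 were labelled the same. For a count this meant within 1.5 times, and for a share within its exact 95% binomial interval over genes. For the median position it meant on the same side of the start and within 62.2 bp, the standard deviation of the medians of the replicate lists. The replicate medians set this limit, so their own labels are no separate check. The interval over genes is wide where genes are few, and it does not measure the spread between replicates. Read from the list of 1 replicate, the count of snRNA genes was 1 without replicate 1 and 4 without replicate 2 for the 48 highest regions, in place of 3, and 5 either way for the 1000 highest, in place of 8. With 1 replicate left out, the share with any summit was 24.8% to 32.6% for all snRNA genes, 26.7% to 40.0% for spliced leader genes and 24.2% to 30.3% for other snRNA genes. The count among the 1000 highest was 3 of 80 genes with no protein-coding start within 1000 bp. Beside it stands 3.41% of all genes, taken without that limit. With the 5000 highest it was 14 of 129 (10.9%). The shares there were 18.9% of protein-coding, 11.8% of snoRNA, 9.20% of miRNA and 8.01% of tRNA genes and 5.45% of tiles. For all snRNA genes the share was 18.6% within 250 bp, 45.7% within 1000 bp, 16.3% by overlap, 14.0% in the 15000 highest and 42.4% with at least 90% unique 36-mers, an alternative chosen after seeing the data; for other snRNA genes these were 16.2%, 49.5%, 13.1%, 12.1% and 40.4%, and for spliced leader genes the last was 50%. With no protein-coding start within 1000 bp, the spliced leader share was 13.6% of 22 genes, in place of 26.7% of 30. The median position turned to -11 bp in the 15000 highest; the cause was not tested. In the replicate lists it ran between 20.5 and 108.5 bp. No paired analysis was possible because there is 1 group and no test.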
